A study of Mus musculus with 36 samples.

Results

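The distal and the proximal forelimb of the same mouse embryos were compared by RNA-seq at stage E12.5 in 5 mutant genotypes. The 15 distal libraries of these genotypes were set against their 15 proximal libraries, 30 of the 36 libraries of the series, and the libraries of a pair share genotype and replicate number. The 6 libraries of wild type (WT) embryos were left out of this comparison and serve only as a reference. The distal forelimb holds the future hand and digits, and the proximal forelimb holds the future upper arm and forearm.

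All embryos were of the strain B6CBAF1. The mutant alleles, made with CRISPR/Cas9, lack CTCF binding sites (CBS) at the Hoxd gene cluster in growing number, with 3 embryos each. By their names, Del(CBS1) lacks the fewest sites. Del(CBS1-2) and Del(CBS1-3) lack more, Del(CBS1-4) still more, and Del(CBS1-5) the most. By their names all 5 mutant alleles lack CBS1. No single allele is shared by all groups, and WT embryos carry none of the deletions. RNA came from pairs of limbs dissected from individual embryos, so each library reflects a mixture of mesenchyme, ectoderm, vessels, nerve and muscle. How many lines or litters stand behind each genotype is not given in the sources used here.

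CTCF is a DNA-binding protein that, together with the ring-shaped cohesin complex, sets the borders of chromatin loops. The Hoxd cluster lies between 2 large regulatory domains: enhancers on the telomeric side drive Hoxd genes in the early limb and later in the forearm, and enhancers on the centromeric side drive the genes at the Hoxd13 end in the digits. HOX13 proteins are markers of the digit domain, HOX11 proteins pattern the forearm, and the MEIS homeodomain proteins mark the proximal limb. At E12.5 cartilage models, tendons and muscles are further formed in the arm than in the hand plate, where the tips still grow and the tissue between the digits has not yet been removed.

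Each of the 30 libraries held 11062069 to 17727891 counts, and the 6 WT libraries 12793148 to 16210649. Levels are given as CPM, a gene's counts relative to the size of its library after scaling between libraries. Differences are log2 values of distal over proximal, estimated within embryos with their standard error (SE), so a positive value means a higher level in distal tissue. A gene was called when its adjusted p was under 0.05. The tissue labels fitted their markers: Hoxd13 ran from 776 to 977 CPM in distal and from 14.7 to 96.1 CPM in proximal libraries. Shox2, a homeobox gene of the proximal limb, ran from 2.68 to 50.6 CPM in distal and from 249 to 479 CPM in proximal libraries. The sex read from the RNA was the same in both libraries of 15 of 15 embryos.

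Of 16155 genes tested, 10989 (68.0%) were called with the 5 mutants together. Of all genes tested, 34.4% were higher in distal tissue (5553 genes) and 33.6% lower (5436 genes). Large differences were mostly losses: 1494 called genes (9.25%) were at least 2-fold lower in distal tissue and 281 (1.74%) at least 2-fold higher. All 15 embryos moved the same way in 5382 genes (33.3%), and the median difference over all tested genes was 0.0006. These shares are the background for every count below. The share of all tested genes without overlap between distal and proximal libraries was not counted. Where a lack of overlap is given below, it describes levels and does not set a gene apart. Genes on chromosome X are in the FPKM table alone and are treated separately. In whole tissue, fewer cells of a type and less RNA per cell cannot be told apart, which holds for every gene group below.

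**Figure D1:**
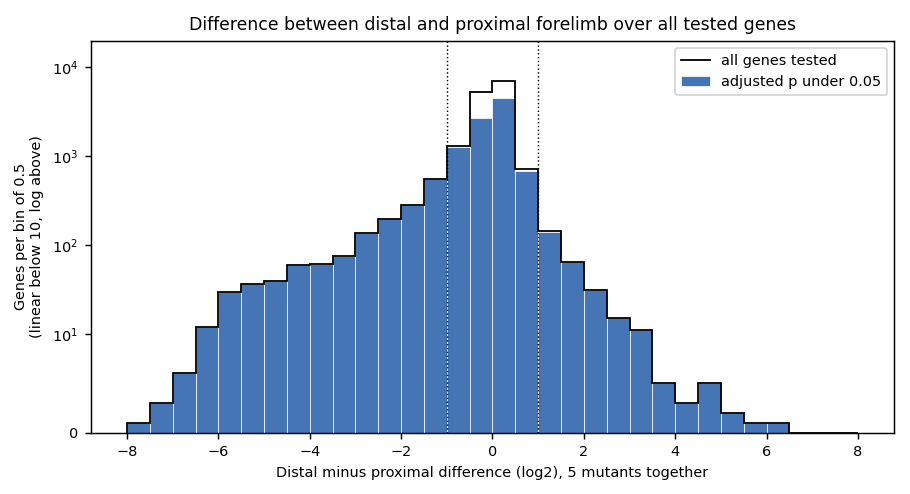
Number of genes (vertical axis, linear below 10 and logarithmic above) by distal minus proximal difference (horizontal axis, log2, bins of 0.5) for the 16155 genes tested in 15 mutant embryos. Bars are called genes and the outline is all genes tested; beyond the dotted lines at 2-fold there are 1494 called genes on the lower side and 281 on the higher side.

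At the Hoxd cluster the genes split by position. Evx2 and the neighbouring Hoxd13 and Hoxd12 rose in distal tissue, and the 6 tested genes from Hoxd11 to Hoxd3 fell, with a loss that was small at Hoxd11 and largest at Hoxd3. All 8 tested HoxD genes were called, and each moved the same way in 15 of 15 embryos. The Hoxd13 end of the cluster is shown by the 150 bases upstream of Evx2 (chr2:74659558-74659707, minus strand) and of Hoxd13 (chr2:74668075-74668224, plus strand), and the flank by those of Chrna1 (chr2:73580339-73580488, minus strand), the neighbour that fell most. The bases are from RefSeq on GRCm38.p6. Capitals mark CAATAAA, letters preferred by posterior HOX proteins, in the sequences of Evx2 and Hoxd13, and CAGCTG, an E-box of the kind bound by myogenic factors, in that of Chrna1.
Evx2: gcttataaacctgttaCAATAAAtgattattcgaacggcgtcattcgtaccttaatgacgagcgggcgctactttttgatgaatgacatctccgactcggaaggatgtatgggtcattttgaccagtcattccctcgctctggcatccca
Hoxd13: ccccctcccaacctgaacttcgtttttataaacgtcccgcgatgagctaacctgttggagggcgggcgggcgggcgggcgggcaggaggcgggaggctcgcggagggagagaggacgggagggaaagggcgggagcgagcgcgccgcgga
Chrna1: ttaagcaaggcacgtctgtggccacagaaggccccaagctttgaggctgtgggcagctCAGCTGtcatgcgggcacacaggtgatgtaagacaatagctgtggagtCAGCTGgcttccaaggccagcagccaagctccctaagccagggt
In the Evx2 sequence CAATAAA stands once, 134 bases before the annotated start, and the printed Hoxd13 sequence has 0 matches. CAGCTG stands 44 and 92 bases before the start of Chrna1. Other promoters were searched over the same 150 bases. CAATAAA had 0 matches at Hoxd12, Hoxd10, Hoxd9, Msx1 and Shox2. CAGCTG had 1 match at Chrng and 0 at Myog, Myl1, Tnnc2, Myh8, Actc1, Tnnt1 and Acta1. On either strand, within 250 bases before to 50 bases after the start, CAATAAA occurs in 4.84% of all 27025 mouse promoters. It occurs in 2.64% of those of the 11561 tested genes and in 1 of 8 HoxD promoters, a set without Evx2.

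Evx2 (chromosome 2, 74652991 to 74659557 on mm10), a homeobox gene that shares its digit expression with Hoxd13, stood at 82.6 to 127 CPM in distal libraries (median 106) and at 0.0722 to 7.26 CPM in proximal ones (median 1.05). No proximal library came near the distal range, and the difference was 5.65 ± 0.24 (SE, n = 15 embryos, adjusted p = 3.59e-15). Proximal levels were uneven among embryos. The 3 Del(CBS1) embryos gave 5.35, 6.72 and 0.664 CPM, and the 3 Del(CBS1-3) embryos 0.153, 0.0722 and 0.0769 CPM.

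Hoxd13 (74668310 to 74671599), the gene of the cluster whose loss shortens and fuses digits, had a distal median of 879 CPM and a proximal median of 41.0 CPM. The groups did not overlap, and the difference was 4.49 ± 0.16 (adjusted p = 2.45e-16). The proximal Hoxd13 level ran from 14.7 CPM in a Del(CBS1-3) embryo to 96.1 CPM in a Del(CBS1) embryo. Hoxd12 (74675013 to 74677705) ranged from 223 to 423 CPM (median 335) in distal and from 36.1 to 96.1 CPM (median 47.9) in proximal libraries, again without overlap. Its difference was 2.64 ± 0.07 (adjusted p = 1.25e-18).

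Hoxd11 (74682323 to 74684168), a forearm gene that is also transcribed in digits, was near balance. Its distal libraries held 30.7 to 69.0 CPM (median 48.8) and its proximal libraries 47.0 to 80.1 CPM (median 63.0), so the groups overlapped. Within embryos the distal level was lower in 15 of 15, by 0.36 ± 0.06 on the log2 scale (adjusted p = 4.11e-06). Hoxd10 (74691924 to 74695105) ran from 49.0 to 99.5 CPM (median 57.0) in distal and from 86.0 to 137 CPM (median 121) in proximal libraries. The ranges touched only because of the distal Del(CBS1) and Del(CBS1-5) libraries, and the difference was -0.79 ± 0.07 (adjusted p = 9.62e-10).

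The loss grew towards the Hoxd3 end. Hoxd9 (74697727 to 74700208) had 6.67 to 25.3 CPM (median 10.4) in distal and 36.2 to 63.2 CPM (median 47.7) in proximal libraries, a difference of -2.02 ± 0.13. Hoxd8 (74704615 to 74707933) had medians of 3.83 and 23.3 CPM and differed by -2.50 ± 0.13. Hoxd4 and Hoxd3, anterior genes whose models overlap so that reads may be shared, differed by -2.59 ± 0.12 and -3.37 ± 0.23. For these 4 genes every distal library was below every proximal one. Hoxd1, the last gene of the cluster, lay under the count filter and was not tested.

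**Figure D2:**
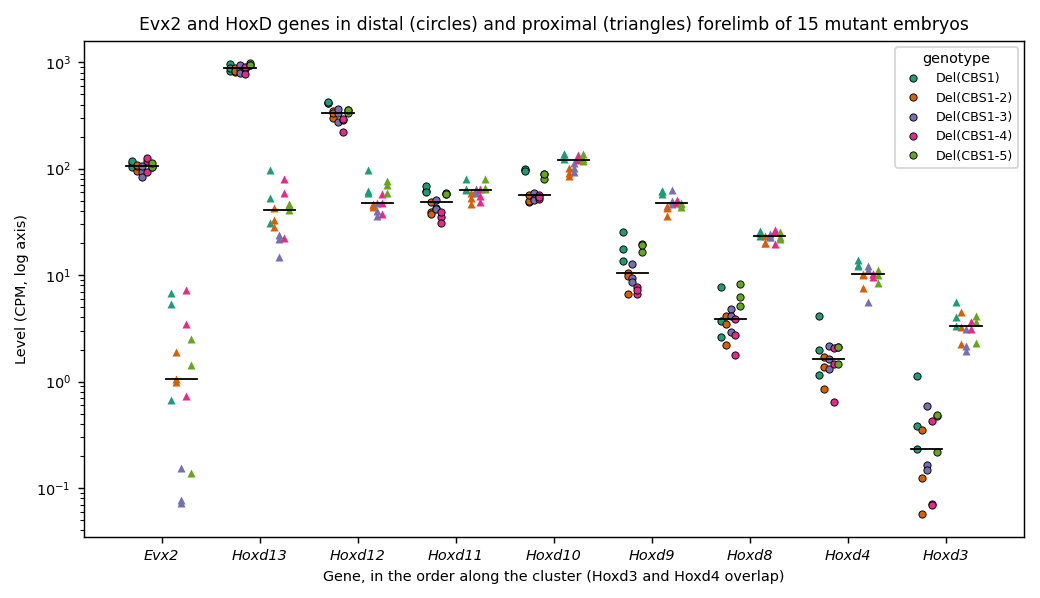
Level (vertical axis, CPM, logarithmic) of Evx2 and 8 HoxD genes (horizontal axis, in cluster order) in each of 15 distal libraries (circles) and 15 proximal libraries (triangles), coloured by genotype, with lines at the medians. Evx2, Hoxd13 and Hoxd12 lie above in distal tissue, Hoxd11 and Hoxd10 are close, and Hoxd9 to Hoxd3 lie below.

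Among 15 listed genes around the cluster, 9 rose, 2 fell and 4 were not called, with a median of 0.23. Lnpk, an endoplasmic reticulum gene beside Evx2 that is known to share digit enhancers with Hoxd13, rose from 24.4 to 35.1 CPM (median 29.8) in proximal to 79.4 to 110 CPM (median 92.6) in distal libraries. Its difference was 1.62 ± 0.04, with no overlap. Chrna1, a subunit of the muscle acetylcholine receptor, fell from a proximal median of 34.6 CPM to a distal median of 1.57 CPM (-4.26 ± 0.10). The other called flanks moved by little: Gpr155 by 0.44, Atf2 by 0.34, Chn1 by 0.33, Atp5g3, Wipf1 and Scrn3 by 0.23 each, Hnrnpa3 by 0.17 and Nfe2l2 by -0.18. Mtx2, the neighbour on the Hoxd1 side, stood at medians of 58.2 and 60.1 CPM and was not called (adjusted p = 0.168), and neither were Agps, Cir1 and Ttc30b.

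The HoxA cluster on chromosome 6 also divided, with 5 of 15 tested members higher and 10 lower, but in another pattern. The higher members were Hoxa13, Hottip, Evx1, Evx1os and Hoxa11os. Its largest loss was at Hoxa11 (-2.56), whereas the Hoxd loss was small at Hoxd11 and largest at Hoxd3. Hoxa13, which acts with Hoxd13 in digit formation, ranged from 152 to 205 CPM (median 184) in distal and from 9.24 to 61.5 CPM (median 22.8) in proximal libraries (2.89 ± 0.17). Hottip, a long noncoding RNA beside Hoxa13, had medians of 34.7 and 1.35 CPM (4.48 ± 0.20). The homeobox gene Evx1 (4.85 ± 0.24) and its antisense transcript Evx1os (5.21 ± 0.25) had proximal levels of at most 1.26 and 1.44 CPM, each with 1 proximal library at 0 counts. Because the counting by strand is not given in the sources used here, the values of antisense transcripts and their partners are uncertain.

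Hoxa11, the forearm partner of Hoxd11, went the other way. Its distal libraries held 9.47 to 66.1 CPM (median 28.4) and its proximal libraries 149 to 202 CPM (median 170), with no overlap (-2.56 ± 0.18). The antisense RNA Hoxa11os rose by 1.31 ± 0.08. Hoxa10 (-0.60 ± 0.06) and Hoxa7 (-0.94 ± 0.07) fell in 15 of 15 embryos, and Hoxa9 fell by only 0.14 on the log2 scale.

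All 8 tested HoxB genes fell, most strongly Hoxb3 (-2.38 ± 0.15) and Hoxb9 (-1.87 ± 0.14). Of 9 HoxC genes, the 5 posterior ones rose in 15 of 15 embryos: Hoxc9 by 1.5, Hoxc10 by 1.97, Hoxc11 by 1.95, Hoxc12 by 2.12 and Hoxc13 by 1.53. The 4 anterior ones fell: Hoxc4 (-1.29), Hoxc5 (-2.08), Hoxc6 (-1.61) and Hoxc8 (-0.68). Hoxc12 stood at a distal median of 4.59 CPM and a proximal one of 0.924 CPM, and Hoxc13 at 9.45 and 3.39 CPM.

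Of 18 listed factors of the distal mesenchyme, 16 rose, 1 fell and 1 was not called, with a median of 1.45 against 0.0006 over all genes. Msx1, a homeobox repressor of the undifferentiated limb tip, ran from 281 to 525 CPM (median 433) in distal and from 3.68 to 55.1 CPM (median 18.7) in proximal libraries (4.51 ± 0.22). Its relative Msx2 had medians of 132 and 15.1 CPM (3.16 ± 0.07). Neither gene overlapped between the tissues. The LIM homeobox genes Lhx2 (2.47 ± 0.07) and Lhx9 (2.28 ± 0.09), which relay signals of the apical ridge, also rose in every embryo. Dlx2 (1.98), Dlx6 (2.02), Mycn (1.62) and Tfap2b (1.57) rose likewise. Prdm1 fell (-0.93 ± 0.07), and Sall1 was not called (0.14 ± 0.13, adjusted p = 0.349).

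The Iroquois genes were split. Irx1, which marks forming digit cartilage, had 42.1 to 108 CPM (median 75.7) in distal and 3.53 to 12.1 CPM (median 8.63) in proximal libraries (3.27 ± 0.10), and Irx2 rose by 0.88 ± 0.09. Irx3 (-0.97 ± 0.15) and Irx4 (-0.51 ± 0.10) fell, and Irx5 (-0.06 ± 0.11) and Irx6 (-0.17 ± 0.27) were not called. Of 7 tested members of the T-box list 6 fell, among them Tbx3 (-1.23 ± 0.07), Tbx15 (-0.93 ± 0.04) and Tbx5, the forelimb identity gene (-0.60 ± 0.04). The list does not hold Eomes, a T-box gene given below. Tbx4, best known from the hindlimb, rose from a median of 23.8 CPM to 30.4 CPM (0.47 ± 0.05).

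Of 17 proximal limb factors, 13 fell, 3 rose and 1 was not called. Shox2 stood at a distal median of 18.8 CPM and a proximal one of 359 CPM (-4.29 ± 0.19). Pkdcc, a secreted kinase of long bone growth, went from 88.2 to 184 CPM in proximal libraries to 1.34 to 11.2 CPM in distal ones (-5.29 ± 0.14), the largest loss of this list. The losses of the MEIS partners of HOX proteins were modest: -1.38 ± 0.09 for Meis1 and -0.85 ± 0.06 for Meis2. The list includes Pax1 of the shoulder girdle, which was at 0 counts in 6 distal libraries and had a proximal median of 2.72 CPM. Pbx2, Zfhx3 and Tbx4 rose.

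**Figure D3:**
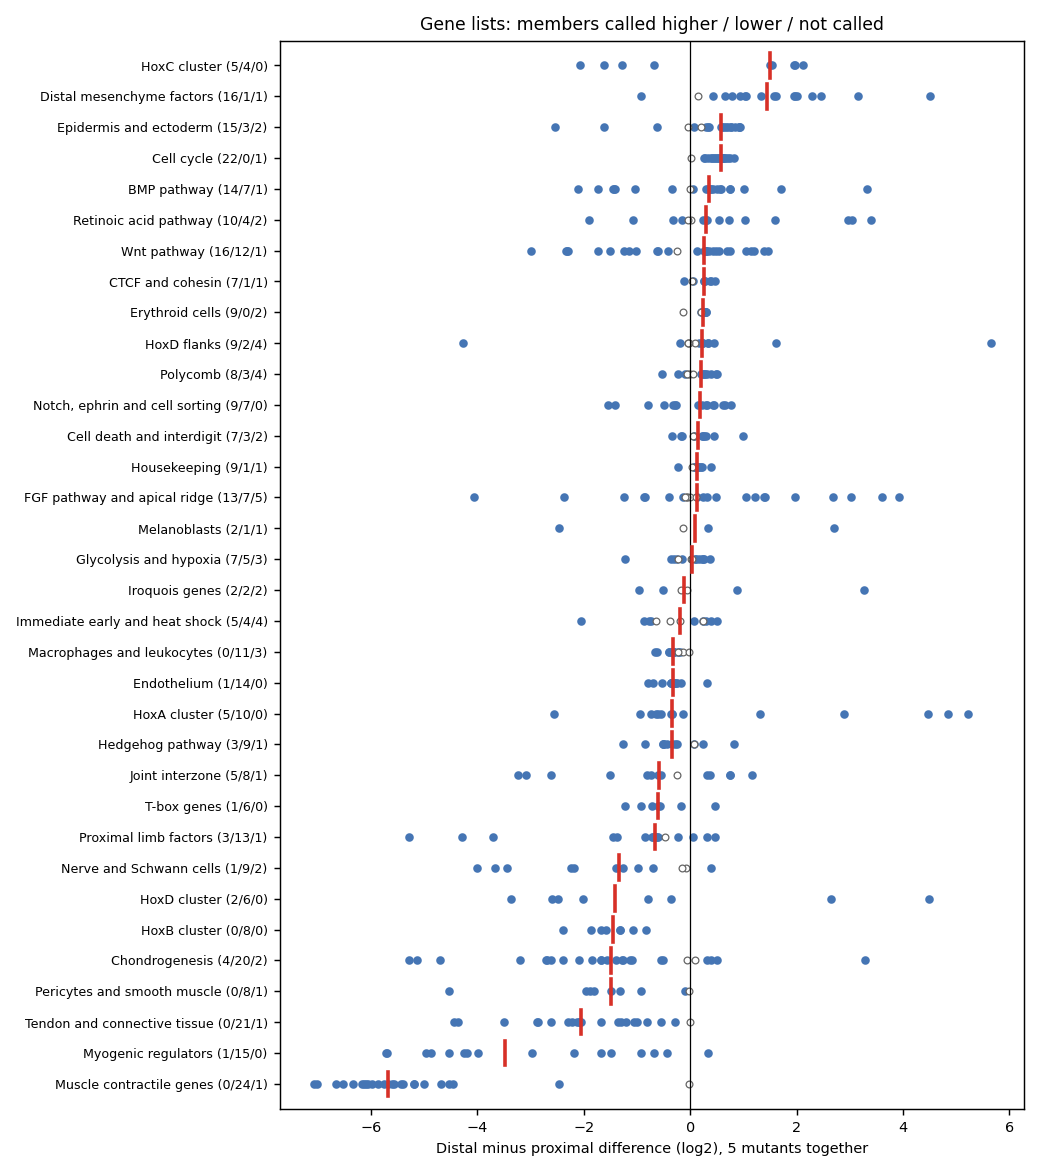
Distal minus proximal difference (horizontal axis, log2, 5 mutants together) of each tested member of 34 gene lists (rows), with called members filled, other members open and the median as a red bar. Numbers beside each name count members called higher, lower and not called; muscle lists lie at the far left and the HoxC and distal mesenchyme lists at the right.

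Signals of the limb tip were compared by role. In the retinoic acid pathway, 10 of 16 tested members rose and 4 fell. Aldh1a2, the main enzyme that makes retinoic acid in the embryo, rose from 22.5 to 61.6 CPM (median 37.7) in proximal to 160 to 475 CPM (median 340) in distal libraries (2.97 ± 0.18). The enzymes that degrade it rose together: Cyp26b1 from a median of 158 to 463 CPM (1.60 ± 0.06), Cyp26a1 from 0.686 to 8.24 CPM (3.40 ± 0.13), and Cyp26c1 from 0.0770 to 0.922 CPM (3.04 ± 0.31). The receptor gene Rarb rose by 1.03 ± 0.14, Rarg by 0.31 ± 0.03 and Rxra by 0.24 ± 0.02. Aldh1a3, a second synthetic enzyme (-1.90 ± 0.14), and Crabp1, a binding protein (-1.07 ± 0.04), fell.

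Of 25 tested genes of FGF signalling and the apical ridge, the thickened ectoderm that keeps the limb tip growing, 13 rose, 7 fell and 5 were not called. Transcription factors of the ridge rose: Bhlha9 (3.93 ± 0.18), Sp9 (3.61 ± 0.24), Sp8 (3.02 ± 0.17) and Sp6 (1.97 ± 0.08), and the ectodysplasin receptor Edar rose by 2.68 ± 0.11. The ligand Fgf8 rose from a median of 2.00 to 5.38 CPM (1.4 ± 0.13), and the mesenchymal ligand Fgf10 from 17.3 to 35.5 CPM (1.04 ± 0.06). Fgf4, a ridge ligand at earlier stages, held 0 to 0.285 CPM in distal and 0.858 to 3.56 CPM in proximal libraries (-4.06 ± 0.25). Fgf4 is also transcribed in embryonic muscle, and the markers of muscle given below moved with it, a part that was not tested. Fgf7 (-2.37 ± 0.20), Fgf18 (-1.25 ± 0.06) and the feedback inhibitor Spry2 (-0.88 ± 0.03) fell. The targets Dusp6 (-0.06 ± 0.03) and Etv5 (-0.09 ± 0.07) were not called.

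In the Wnt pathway 16 of 29 tested members rose and 12 fell. Wnt5a, which guides outgrowth of the limb, had 625 to 728 CPM in distal and 210 to 268 CPM in proximal libraries (1.47 ± 0.03). The effectors Lef1 (1.2 ± 0.04) and Tcf7 (1.05 ± 0.05) and the target Axin2 (0.75 ± 0.03) rose in 15 of 15 embryos. Lgr5, a target as well as a receptor of R-spondins, fell in 15 of 15 (-2.33 ± 0.07). The ligand enhancer Rspo2 (1.4 ± 0.12) and the inhibitor Dkk1 (1.13 ± 0.12) rose. Other inhibitors fell: Dkk2 from a median of 129 to 25.1 CPM (-2.32 ± 0.08), Frzb (-1.73 ± 0.09) and Sfrp1 (-1.15 ± 0.06). The receptor Ror1 (-2.31 ± 0.08) and the ligand Wnt2 (-2.99 ± 0.20) fell as well.

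For BMP signalling, which forms cartilage and removes the tissue between digits, 14 of 22 members rose and 7 fell. Among the ligands, Bmp2 (0.43 ± 0.04) and Bmp7 (0.39 ± 0.04) rose, Bmp5 (-1.43 ± 0.17) and Bmp6 (-1.73 ± 0.14) fell, and Bmp4 was not called (-0.01 ± 0.04). The target genes went both ways. Id1 (1.01 ± 0.04), Id2 (0.29 ± 0.03), Id3 (0.75 ± 0.03), Smad6 (0.34 ± 0.05) and Smad7 (0.56 ± 0.04) rose in 15 of 15 embryos, and Id4 fell in 15 of 15 (-1.03 ± 0.10). The decoy receptor Bambi rose (1.71 ± 0.06). Sost, a secreted antagonist of bone, rose from a median of 0.692 to 6.03 CPM (3.32 ± 0.15). The antagonists Grem1 (-2.11 ± 0.30) and Chrd (-1.46 ± 0.05) fell.

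Most Hedgehog genes fell a little: 9 of 13 fell, 3 rose and 1 was not called. The target Gli1 differed by -0.50 ± 0.10, the receptors Ptch1 by -0.28 ± 0.04 and Boc by -0.85 ± 0.05. Gli3, which limits digit number, rose from a median of 240 to 424 CPM (0.82 ± 0.04). Shh itself lay under the count filter. In the Notch and ephrin list 9 members rose and 7 fell, with the largest values at Dll1 (-1.54 ± 0.09) and Epha7 (-1.41 ± 0.11).

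Of 26 tested genes of chondrogenesis 20 fell and 4 rose. The transcription factors Sox9 (0.51 ± 0.05), Sox5 (0.32 ± 0.03) and Sox6 (0.39 ± 0.06), which commit cells to cartilage, rose in 15 of 15 embryos. The matrix genes that follow fell: Col2a1 from a median of 2406 to 1051 CPM (-1.09 ± 0.06), Acan from 168 to 22.9 CPM (-2.62 ± 0.11), and Matn1 from 69.0 to 1.08 CPM (-4.71 ± 0.25). Col9a1, a gene of the same matrix, was not called (-0.07 ± 0.08). Runx2, which drives bone formation, fell by 2.38 on the log2 scale.

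Col10a1, a collagen of mature cartilage, went against this pattern. It held 1.60 to 5.21 CPM in distal libraries and 0 to 1.02 CPM in proximal ones (3.29 ± 0.26). Its model lies within that of Nt5dc1, so reads of the 2 genes may be shared.

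The joint list was mixed, with 5 of 14 members higher and 8 lower. Gdf5, the growth factor that marks future joints, rose from a median of 70.5 to 124 CPM (0.74 ± 0.13), and Has2, which makes hyaluronan, from 36.8 to 87.9 CPM (1.16 ± 0.11). Osr1, a zinc finger gene of connective tissue and joints, fell from 143 to 21.1 CPM (-2.61 ± 0.20), and Barx1 from 7.02 to 0.668 CPM (-3.24 ± 0.18).

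Of 22 tendon and connective tissue genes 21 fell, with a median of -2.06. Col3a1, a fibrillar collagen, ran from 454 to 777 CPM in distal and from 1760 to 3220 CPM in proximal libraries (-2.10 ± 0.03). Lum fell from a median of 184 to 7.94 CPM (-4.45 ± 0.20), Thbs4 from 18.4 to 0.977 CPM (-4.36 ± 0.15), and Dcn from 83.7 to 6.92 CPM (-3.51 ± 0.10). Scx, the first transcription factor of the tendon lineage, fell less (-1.37 ± 0.06). Mkx, another tendon factor, was not called (-0.01 ± 0.05, adjusted p = 0.819).

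Muscle genes had the lowest median of the 34 lists. Of 25 contractile genes 24 fell, with a median of -5.68, and 15 of 16 myogenic regulators fell. Myh3, the embryonic myosin heavy chain, held 386 to 771 CPM in proximal and 1.71 to 27.8 CPM in distal libraries (-6.09 ± 0.22). The slow myosin Myh7 fell from a median of 48.2 to 0.148 CPM (-7.07 ± 0.18) and the perinatal myosin Myh8 from 69.5 to 0.214 CPM (-7.01 ± 0.19), each with 3 distal libraries at 0 counts. Ttn, the giant spring of the sarcomere, fell from 384 to 4.87 CPM (-5.75 ± 0.20). Tmod4 was not called (-0.03 ± 0.09).

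The other contractile and sarcomere genes at the head of the losses were Sln (-6.80), Xirp1 (-6.68), Myot (-6.66), Myom2 (-6.59), Acta1 (-6.54), Mybph (-6.45), Csrp3 (-6.42), Myl4 (-6.33), Actn2 (-6.17) and Lmod3 (-6.14). All fell in 15 of 15 embryos. Where distal libraries were at 0 counts, as 9 were for Myot and for Xirp1, the fitted difference depends on a small added count.

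Among the regulators, the progenitor genes Pax7 (-5.71 ± 0.23) and Pax3 (-1.49 ± 0.18) fell, as did Myf5 (-2.98 ± 0.15) and Myod1 (-4.0 ± 0.16), which commit cells to muscle. Myog, which drives their fusion, went from a median of 192 to 5.37 CPM (-4.97 ± 0.19). Lbx1, a gene of migrating muscle precursors, fell by 2.19 on the log2 scale. Six4, also active outside muscle, rose by 0.34 ± 0.05. Of 21 contractile genes with a promoter in the reference, 8 (38.1%) hold CAGCTG within the window described above, against 15.6% of 11561 tested genes, and 0 of 7 myogenic regulators hold it. In the other lists searched, 6 of 21 chondrogenesis promoters (28.6%) and 1 of 18 cell cycle promoters (5.56%) hold it. The motif was found in 0 of 8 HoxD, 0 of 12 distal mesenchyme and 0 of 12 tendon promoters. Among genes at least 2-fold lower in distal tissue 240 of 1029 (23.3%) hold it, and 31 of 195 (15.9%) of those at least 2-fold higher.

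Markers of other cell types moved by less. Of 12 nerve and Schwann cell genes 9 fell, led by Foxd3 (-4.0 ± 0.25), Fabp7 (-3.66 ± 0.27) and Sox10 (-2.19 ± 0.20), while the neuronal tubulin Tubb3 rose (0.38 ± 0.08). Endothelial genes fell in 14 of 15 cases but with a median of -0.32: Pecam1 was at medians of 62.5 and 75.6 CPM and Cdh5 at 102 and 128 CPM. Of 14 macrophage genes 11 fell, also with a median of -0.32. Of 9 genes of pericytes and smooth muscle 8 fell, with Acta2, an actin shared with early muscle, at medians of 11.1 and 305 CPM (-4.53 ± 0.12).

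Ectoderm and blood cell genes were on the other side. Of 20 genes of the epidermis 15 rose and 3 fell, with a median of 0.58: Krt14 rose from a median of 72.3 to 137 CPM (0.93 ± 0.04) and Trp63 from 44.3 to 63.9 CPM (0.58 ± 0.04). Krt15 fell from 84.8 to 16.7 CPM (-2.54 ± 0.11). The summed level of the epidermal list ran from 822 to 1147 CPM in distal and from 646 to 929 CPM in proximal libraries, which moves with the ridge genes above, a part that was not tested. Of 11 erythroid genes 9 rose, all by small amounts, with a median of 0.24. Of 4 melanoblast genes Dct (2.70 ± 0.36) and Kit (0.34 ± 0.04) rose and Tyrp1 (-2.47 ± 0.29) fell, with distal medians of 1.4 CPM for Dct and 0.188 CPM for Tyrp1.

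Genes of the cell cycle rose almost without exception: 22 of 23, with a median of 0.57, and 1 not called. Top2a, which untangles replicated DNA, had 1066 to 1286 CPM in distal and 586 to 815 CPM in proximal libraries (0.71 ± 0.04), and Rrm2, which supplies deoxynucleotides, had medians of 277 and 159 CPM (0.82 ± 0.04). Mki67 (0.52 ± 0.03), Pcna (0.74 ± 0.03) and Ccnb2, a mitotic cyclin (0.67 ± 0.04), rose in 15 of 15 embryos. Ccnd1 was not called (0.01 ± 0.05), in contrast to Ccnd2 (0.58 ± 0.05). As examples, the 150 bases upstream of Ccnb2 (chr9:70421555-70421704, minus strand) and Top2a (chr11:99024190-99024339, minus strand) are printed from RefSeq on GRCm38.p6. Capitals mark CCAAT or its reverse complement ATTGG, the box bound by NF-Y.
Ccnb2: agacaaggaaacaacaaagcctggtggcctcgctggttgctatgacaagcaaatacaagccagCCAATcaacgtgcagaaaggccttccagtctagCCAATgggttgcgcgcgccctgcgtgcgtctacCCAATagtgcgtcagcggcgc
Top2a: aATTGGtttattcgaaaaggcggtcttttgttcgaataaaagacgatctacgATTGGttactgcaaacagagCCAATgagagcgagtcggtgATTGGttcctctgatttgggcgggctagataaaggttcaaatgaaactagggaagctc
The box occurs 3 times in the first sequence and 4 times in the second. Over the same 150 bases Ccnb1, Cdk1 and Cdc20 had 2 matches each, so the printed sequences are those with the most. In the window of 300 bases, CCAAT on either strand was found in 15 of 18 cell cycle promoters (83.3%) against 38.3% of the tested genes. It was not particular to this list, with 6 of 8 HoxD promoters (75.0%) and 6 of 12 distal mesenchyme promoters (50.0%). In the contractile, chondrogenesis, myogenic and tendon lists its share ran from 25.0% to 42.9%. TTTGAA, a core of the element that represses mitotic genes in resting cells, was found in 8 of 18 (44.4%) against 11.9%. It was also in 3 of 8 HoxD promoters (37.5%) and 3 of 12 distal mesenchyme promoters (25.0%). Its share in the other lists searched ran from 0.0% to 16.7%.

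Of 9 genes of CTCF and cohesin 7 rose, among them Ctcf itself from a median of 198 to 255 CPM (0.37 ± 0.02), Rad21 (0.39 ± 0.03) and Pds5a (0.47 ± 0.02). Pds5b fell (-0.12 ± 0.03). In the Polycomb list 8 of 15 rose, with Ezh2 at 0.50 ± 0.03 and Suz12 at 0.48 ± 0.02, and 3 fell, with Jarid2 at -0.53 ± 0.02. For scale, 9 of 11 housekeeping genes rose, by up to 0.39 (Polr2a), with a median of 0.14.

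Of 12 genes of cell death and the interdigit 7 rose, led by Dlc1 (0.99 ± 0.03) and Bmf (0.44 ± 0.03), and Apaf1 fell (-0.35 ± 0.03). In glycolysis and hypoxia 7 of 15 rose and 5 fell, with the largest value at Egln3 (-1.23 ± 0.09). Of 13 immediate early and heat shock genes, which respond to handling, 5 rose and 4 fell. Egr1, which is also induced in tendon, fell by 2.06 on the log2 scale, and Fos by 0.77.

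The remaining genes of the largest gains were Dbx2, a homeobox gene with 3.37 to 23.3 CPM in distal and 0.305 to 1.53 CPM in proximal libraries (3.53 ± 0.19), and genes named above. Genes on chromosome X were compared on the log2(FPKM + 1) scale with limma, which understates changes of low genes. Of 446 such genes, 324 (72.6%) were called, 153 higher and 171 lower. The same test called 70.6% of 12606 autosomal genes. Itm2a, a membrane protein gene of cartilage and muscle, had 30.6 ± 5.86 FPKM in distal and 202 ± 33.6 FPKM (SD, n = 15) in proximal tissue (-2.69, adjusted p = 6.26e-19). Rtl3 (-3.98) and Itgb1bp2, a muscle chaperone gene (-2.91), fell more. Dach2 (1.29), Vegfd (0.93) and Dusp9, an ERK phosphatase gene (0.90), rose in 15 of 15 embryos, as did the cohesin genes Smc1a (0.31) and Stag2 (0.24).

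The tissue difference was then read in each genotype. Within Del(CBS1) 41.7% of the genes were called, within Del(CBS1-2) 48.7%, within Del(CBS1-3) 41.0%, within Del(CBS1-4) 43.8% and within Del(CBS1-5) 45.3%. In all 5 genotypes 4116 genes (25.5%) were called the same way, 1949 higher and 2167 lower. Opposite calls in at least 1 pair of genotypes were found for 83 genes, of which 7 were at least 2-fold in both directions. Of the 10 pairs of genotypes, which share no library, the correlation of the differences across genes ran from 0.842 to 0.897.

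A test of the difference itself found 409 genes (2.53%) whose tissue difference varied among the 5 genotypes, and 342 of them were also called with the mutants together. The count rests on few embryos: leaving out 1 of 7 embryos moved it by more than 1.5 times. It was 220 and 237 without Del(CBS1-2) replicates 1 and 2, 270 and 622 without Del(CBS1-3) replicates 1 and 2, and 269, 237 and 927 without Del(CBS1-5) replicates 1, 2 and 3. Without the embryo block it was 207. At the Hoxd cluster these were Hoxd10 and Hoxd9. For Hoxd10 the differences were -0.45 ± 0.07 in Del(CBS1), -0.84 ± 0.08 in Del(CBS1-2), -0.93 ± 0.08 in Del(CBS1-3), -1.23 ± 0.08 in Del(CBS1-4) and -0.55 ± 0.07 in Del(CBS1-5) (adjusted p = 0.00177). The distal levels behind them were 96.7, 99.5 and 94.7 CPM in Del(CBS1), 51.6, 56.4 and 54.6 CPM in Del(CBS1-4) and 88.2, 79.5 and 88.8 CPM in Del(CBS1-5). The proximal levels were 122, 137 and 137 CPM in Del(CBS1), 134, 121 and 125 CPM in Del(CBS1-4) and 123, 137 and 118 CPM in Del(CBS1-5). In Del(CBS1-2) the distal levels were 49.0, 49.5 and 57.0 CPM and the proximal levels 92.0, 102 and 86.0 CPM. In Del(CBS1-3) they were 52.3, 51.0 and 58.9 CPM and 102, 93.1 and 113 CPM. In distal tissue Del(CBS1-2), Del(CBS1-3) and Del(CBS1-4) overlapped and lay below Del(CBS1-5), which lay below Del(CBS1). In proximal tissue Del(CBS1-2) and Del(CBS1-3) overlapped and lay below the other 3 genotypes, which overlapped.

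Hoxd9 showed a like order, with -1.70 ± 0.15, -2.20 ± 0.17, -2.38 ± 0.17, -2.75 ± 0.17 and -1.32 ± 0.15 from Del(CBS1) to Del(CBS1-5) (adjusted p = 0.00739). Its distal levels were 6.71, 7.77 and 7.32 CPM in Del(CBS1-4) and 19.5, 16.6 and 19.0 CPM in Del(CBS1-5). For Hoxd11 the test gave an adjusted p of 0.0575, for Evx2 0.0572, for Hoxd12 0.0817, for Hoxd13 0.103 and for Hoxd8 0.124. Lnpk kept a difference of 1.56 to 1.73 in each genotype (adjusted p = 0.835).

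In the HoxA cluster 5 genes varied. Hoxa13 had its largest difference in Del(CBS1-3) (4.22 ± 0.24) and its smallest in Del(CBS1-4) (2.17 ± 0.20, adjusted p = 0.00655). This came with proximal levels of 10.2, 9.24 and 10.4 CPM in Del(CBS1-3) against 61.5, 46.0 and 20.8 CPM in Del(CBS1-4). Hoxa11 fell by 2.02 in Del(CBS1) and by 3.84 in Del(CBS1-4) on the log2 scale (adjusted p = 0.00758). Hoxa10 (range of the 5 differences 0.60), Hoxa5 (1.02) and Hoxa11os (0.89) varied too, as did Hoxc5 (2.69) in the HoxC cluster. None of these genes lies on the chromosome that carries the deletions.

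Outside the Hox clusters the genotypes often sorted in the same way. In 355 of the 409 genes (86.8%), the Del(CBS1-2) and Del(CBS1-4) differences both lay on 1 side of the other 3, 228 above and 127 below, against 34.2% of all tested genes. For the 9 other pairs of genotypes the count ran from 5 to 252. This pairing was noticed after the values were seen. The 409 genes were also selected on these same differences, so the contrast with 34.2% is not an independent test. Aldh1a2 had differences of 3.63 and 3.93 in these genotypes and of 2.19 to 2.79 in the other 3. Osr1 had -1.96 and -1.59 against -3.65 to -2.77. Has2 had 0.64 and 0.55 against 1.4 to 1.63.

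Hhip, an inhibitor of Hedgehog, differed by -0.04 and 0.47 in Del(CBS1-2) and Del(CBS1-4) and by -1.43 to -0.93 in the others. Grem1 followed, with -3.32 and -3.51 against -1.90 to -0.50. Comp, a protein of mature cartilage and tendon, had proximal levels of 19.9, 22.5 and 24.0 CPM in Del(CBS1-2) and 23.5, 8.46 and 32.3 CPM in Del(CBS1-4), and 1.36 to 11.3 CPM in the other 9 embryos. Smpd3, a sphingomyelinase of cartilage and bone, had 5.66 to 14.7 CPM in those 6 proximal libraries and 0.761 to 3.54 CPM in the other 9. Cbln4 varied as well (range 3.37), as did Tmem132e (3.28).

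Eomes, a T-box gene, had the widest range of all named genes. It differed by 4.87 in Del(CBS1-3) and 2.19 in Del(CBS1-5), and by -0.96 to -0.06 in the other 3 genotypes. In proximal tissue the Del(CBS1-3) embryos held 1.53, 1.3 and 0.385 CPM and the Del(CBS1) embryos 16.9, 18.7 and 14.5 CPM. Myh15, a myosin also found outside limb muscle, differed by -2.23 in Del(CBS1-5) and 0.93 in Del(CBS1-4). Cacng6, a calcium channel subunit, differed by -4.71 in Del(CBS1) and -0.57 in Del(CBS1-5), with 1 distal Del(CBS1-3) library at 0 counts.

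**Figure D4:**
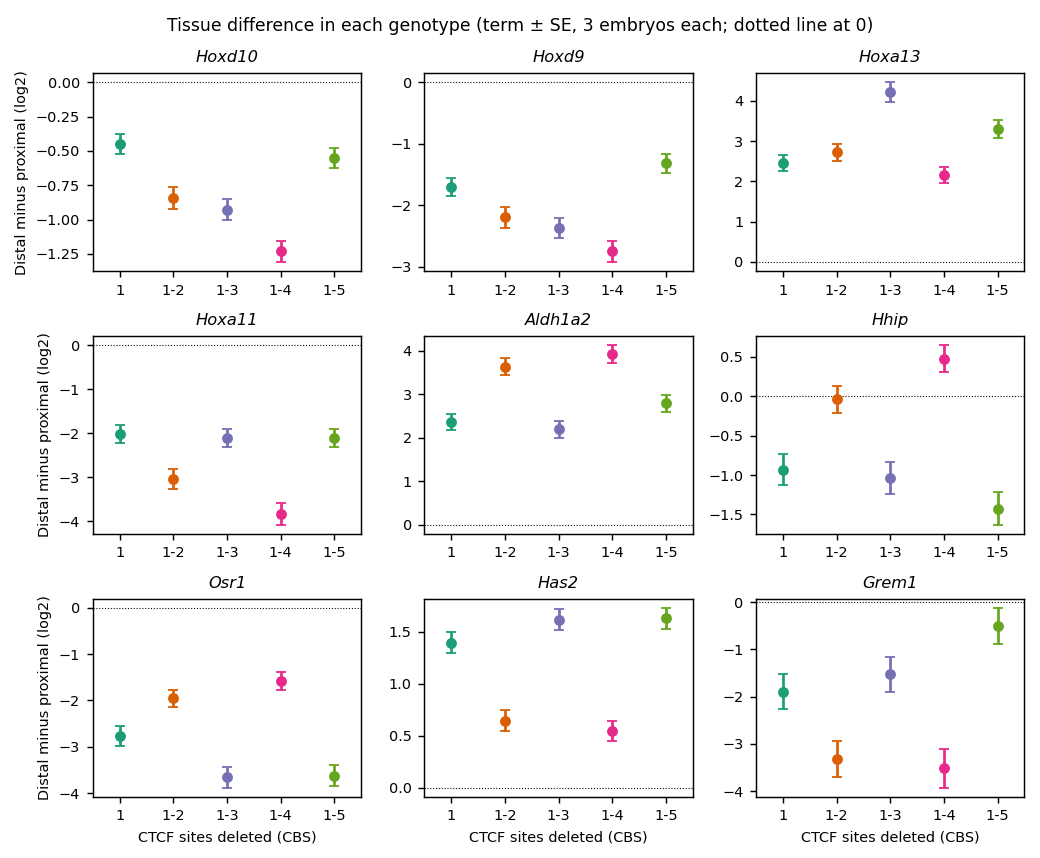
Distal minus proximal difference (vertical axes, log2, with SE) in each mutant genotype (horizontal axes, CTCF sites deleted, 3 embryos each) for 9 genes that varied among genotypes. Hoxd10 and Hoxd9 decline from Del(CBS1) to Del(CBS1-4) and are higher in Del(CBS1-5); in Aldh1a2, Hhip, Osr1, Has2 and Grem1 the Del(CBS1-2) and Del(CBS1-4) points lie on 1 side of the other 3.

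Medians of some summed marker lists moved with the same genotypes, and others did not. The summed chondrogenesis list had distal medians of 4199 CPM in Del(CBS1-2) and 4310 CPM in Del(CBS1-4), against 2454 to 2916 CPM in the other 3 mutants and 3054 CPM in WT. Its distal ranges overlapped between Del(CBS1-4), with 3609 to 4340 CPM, and Del(CBS1-3), with 2456 to 3822 CPM. The summed tendon list had proximal medians of 11611 and 11077 CPM against 7612 to 8644 CPM. Single libraries overlapped, with 9570 to 12960 CPM in Del(CBS1-4) and 7606 to 10963 CPM in Del(CBS1-3). The cell cycle list had proximal medians of 4797 and 4738 CPM against 5714 to 6108 CPM. Its proximal ranges overlapped between Del(CBS1-4), with 4672 to 5413 CPM, and Del(CBS1), with 5186 to 5906 CPM. Its distal medians did not sort this way: 7527 and 7719 CPM, with 7593 CPM in Del(CBS1) and 7982 CPM in Del(CBS1-5). The contractile list had distal medians of 119 and 82.3 CPM against 48.7 to 66.9 CPM. Its distal ranges overlapped, with 65.8 to 178 CPM in Del(CBS1-4) and 59.2 to 155 CPM in Del(CBS1). Its proximal median in Del(CBS1-4) was 3130 CPM, under 3232 CPM in Del(CBS1) and 3323 CPM in Del(CBS1-3). The erythroid list was highest in another genotype, Del(CBS1-5), with a distal median of 5056 CPM. The part of these levels in the 409 genes was not tested. Since each genotype has 3 embryos and the labels name no litter or date, genotype and litter cannot be told apart. Sex was not balanced either: by RNA every Del(CBS1-2) embryo was female, and each other mutant genotype held both sexes. The part of sex was not tested.

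**Figure D5:**
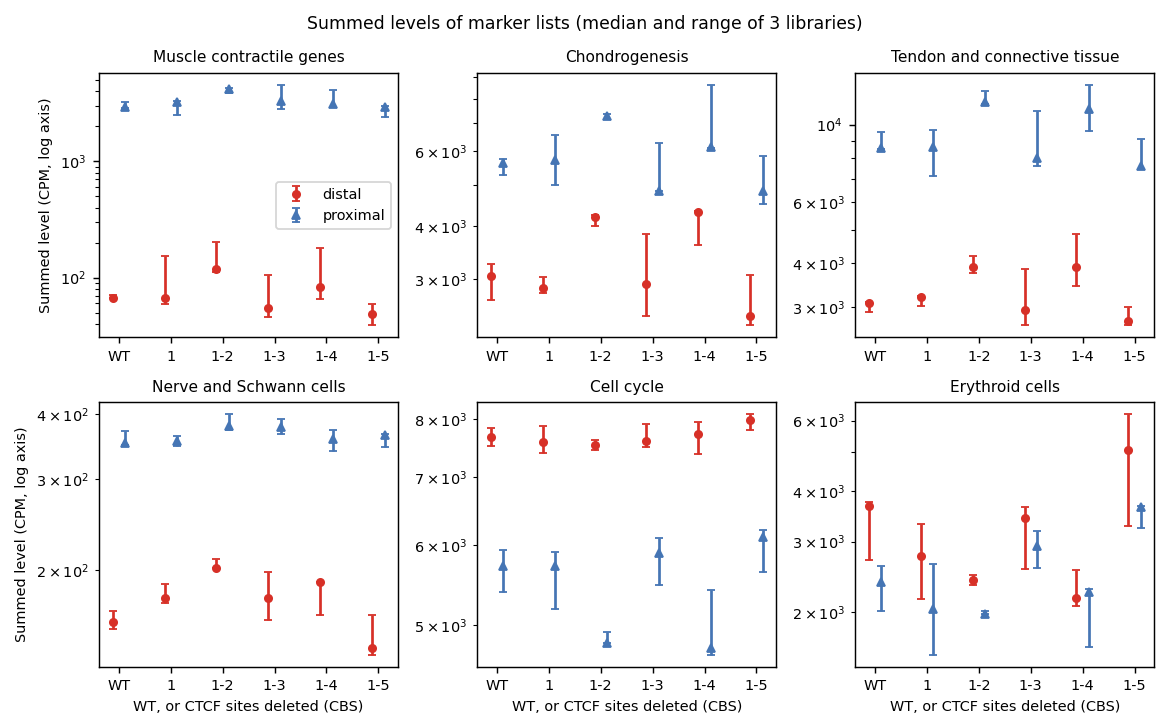
Summed level (vertical axes, CPM, logarithmic) of 6 marker lists in distal (circles) and proximal (triangles) forelimb of WT and of each mutant (horizontal axes), as the median and range of 3 libraries. Del(CBS1-2) and Del(CBS1-4) have the highest distal chondrogenesis and proximal tendon medians and the lowest proximal cell cycle medians.

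Tissue differences were then compared from 1 allele to the next. Between Del(CBS1) and Del(CBS1-2) 1 gene (0.00619%) was called: Ccbe1, a secreted factor of lymphatic growth, whose difference moved by -1.76 ± 0.22 (adjusted p = 0.00174). Between Del(CBS1-2) and Del(CBS1-3) 214 genes (1.32%) were called, between Del(CBS1-3) and Del(CBS1-4) 273 (1.69%), and between Del(CBS1-4) and Del(CBS1-5) 361 (2.23%). Leaving out 1 embryo at a time gave 1 to 31, 17 to 422, 61 to 442 and 69 to 931 genes for the 4 steps, and fits without the embryo block 3, 88, 147 and 154. DESeq2 called 22, 136, 246 and 281 genes. Neighbouring steps share a genotype and are not independent. At the Hoxd cluster, Hoxd10 and Hoxd9 were called in the last step alone, with their distal loss smaller in Del(CBS1-5): by 0.68 ± 0.11 for Hoxd10 (adjusted p = 0.00261) and by 1.43 ± 0.24 for Hoxd9 (adjusted p = 0.00336). At the step to Del(CBS1-2) the change of Hoxd10 was -0.39 ± 0.11 and was not called (adjusted p = 0.106).

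Against WT, the mean tissue difference of the 5 mutants was called in 0 of 16292 genes (0.0%) by edgeR, with 906 genes at an unadjusted p under 0.05, and in 1 gene by DESeq2. Hoxd10 came closest: its difference was -0.30 ± 0.07 in WT and -0.80 in the mean of the mutants, a change of -0.50 ± 0.08 (adjusted p = 0.0523). It was the 1 gene called when any 1 of 6 embryos was left out: WT replicate 3, Del(CBS1) replicate 1, Del(CBS1-2) replicate 3, Del(CBS1-4) replicate 2 or Del(CBS1-5) replicates 2 or 3. Hoxd11 was even between the tissues in WT and -0.37 in the mutants (adjusted p = 0.89), and Hoxd9 was -1.49 and -2.07 (adjusted p = 0.89). Hoxd13 (4.34 and 4.51), Hoxd12 (2.56 and 2.64) and Hoxd8 (-2.53 in both) had differences in WT close to those of the mutants, with adjusted p from 0.961 to 1.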

How the data were processed

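RNA from distal and proximal forelimb was sequenced as single-end reads from stranded polyA libraries, per the labels' protocols. The authors deposited a table of raw counts per gene, which holds autosomal genes, and a table of FPKM values. The genome build mm10 and 4 tools appear in the submitters' processing notes with no role given: STAR (2.7.0), Cufflinks (2.2.1), cutadapt (1.16) and bedtools (2.27.1). Whether counting used strand is not given in the sources used here.

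Counts were tested with edgeR 4.0.16 in R 4.3.3 (TMM scaling, quasi-likelihood F test, embryo as a block, filterByExpr, Benjamini-Hochberg adjustment over all tested genes, threshold 0.05). Alternatives used DESeq2 1.42.0, other scaling and filters, and limma 3.58.1 on log2(FPKM + 1), also used for chromosome X. The tests were tried on simulated data. The pairing comes from the genotype and replicate number. Sex read from the RNA matched in 15 of 15 embryos, which cannot check the pairing in Del(CBS1-2), where every library read as female. Same-number deviations correlated at -0.124 to 0.528 (median 0.233), other numbers at -0.497 to 0.26 (median -0.108). Deviations were taken from the group mean, so positive same-number values push the others down, and the contrast is partly built in. Of 15 distal libraries, 11 correlated best with the proximal library of their own number. The labels name no litter, so p-values measure the spread between these embryos.

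Named genes are the tested HoxD genes, called flanks, the 12 largest called differences in each direction with at least 50 mean counts and the same direction in 15 embryos, the 8 widest ranges among genotypes, and the 4 smallest p of each list. Other list members are named for their role, and Ccbe1 was chosen after its value was seen. Members and lists were chosen with earlier results of these data known. Some list members are counted with their lists but not reported here by name.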

Additional observations from a re-analysis of the deposited data

Results flagged for a closer look

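Of 213 genes named and tested, 34 had a distal minus proximal difference that varied among the 5 genotypes (adjusted p from 0.000472 to 0.048, edgeR quasi-likelihood test with Benjamini-Hochberg adjustment). Over all 16155 genes tested, 409 (2.53%) varied. Because 8 genes were named for the width of their range and Ccbe1 after its value was seen, these counts cannot be compared. The range of the 5 genotype values, on the log2 scale, was 5.83 for Eomes, 5.00 for Smpd3, 4.14 for Cacng6, 3.95 for Comp, 3.37 for Cbln4, 3.28 for Tmem132e, 3.16 for Myh15 and 3.02 for Grem1, genes named for the width of this range. In the Hox clusters it was 2.69 for Hoxc5, 2.05 for Hoxa13, 1.82 for Hoxa11, 1.43 for Hoxd9, 1.02 for Hoxa5, 0.89 for Hoxa11os, 0.78 for Hoxd10 and 0.60 for Hoxa10.

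Among signalling genes the range was 1.90 for Hhip, 1.73 for Aldh1a2, 1.32 for Rarb, 1.18 for Epha7, 0.70 for Etv5, 0.57 for Fgf10, 0.42 for Bmp7 and 0.35 for Gli3. Among genes of skeleton, muscle and other groups it was 2.85 for Irx6, 2.06 for Osr1, 1.94 for Myog, 1.77 for Myod1, 1.75 for Ccbe1, 1.45 for Sall1, 1.12 for Gdf5, 1.08 for Has2, 0.63 for Col9a1 and 0.43 for Rrm2. Medians of some summed marker lists given in the report moved with the same genotypes, and others did not. The part of the marker lists in these ranges was not tested.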

How the results depend on the processing

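Without the embryo block, 10838 genes were called with the mutants together, 207 among genotypes, 3, 88, 147 and 154 in the 4 steps, and 1 against WT. With RLE scaling the first step had 2 genes and the comparison with WT 1. DESeq2 gave 22 and 136 genes in the first and second step and 1 against WT. The causes were not tested. Leaving out 1 embryo at a time gave 10831 to 10974 genes together, 5356 to 5581 of them higher, and within genotypes 5135 to 6970, 6358 to 7961, 5301 to 6694, 5736 to 7353 and 5802 to 7358. It gave 220 to 927 genes among genotypes, 1 to 31, 17 to 422, 61 to 442 and 69 to 931 in the steps, and 0 to 1 against WT. Fewer embryos leave fewer degrees of freedom. Of the named genes, Hbb-bh1 lost its call without the block (adjusted p = 0.112), Eomes, Myh15 and Mitf gained one under some settings, and Myh15 turned to 0.083 without genotype Del(CBS1-5) (adjusted p = 0.781).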
